A study of Mus musculus with 10 samples.

Results

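The genes described here are 10 genes of the macrophage and its antibacterial enzyme lysozyme: the lysozyme genes Lyz1 and Lyz2, the C1q chain genes C1qa, C1qb and C1qc, the receptor genes Csf1r, Cx3cr1, Mrc1 and Fcgr3, and the lysosomal gene Cd68. They were chosen by name, with earlier results of these data known, and were matched from symbol to mouse Ensembl identifier. All 10 were found among the 49662 genes of the table, and all 10 were among the 17204 genes compared, those that reached 10 estimated fragments in 1 group or more. Because levels in these hearts played a part in the choice, and because Lyz1 and Lyz2 also stand in the study's own list of genes for the mutant hearts, the values are given as a description, with no test.

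RNA was measured by poly-A selected RNA-seq in entire hearts dissected at E12.5 from mouse embryos. There were 3 groups: wild-normoxia (+/+ for Nkx2-5, normal oxygen, 4 samples), wild-hypoxia (+/+, 3 samples) and mutant-normoxia (heterozygous Nkx2-5 +/R52G knock-in, normal oxygen, 3 samples). For wild-hypoxia the pregnant mouse was kept from gestation day 10 in a chamber lowered to 14% oxygen, so the hearts had been exposed for 2 days. All embryos came from wild-type mothers on a 129/Sv background, and 2 to 3 hearts were pooled for each sample. Mutant embryos under hypoxia are not analysed here. The deposited table gives 1 estimated fragment count per gene and group with the variance of the authors' model, on a scale shared by the groups, and no value per sample. No spread between samples could therefore be computed. Each error below is a model error: the model SD of a group value is the root of the deposited variance divided by the number of samples, and the model standard error (SE) of a log2 ratio follows from it. The group totals were between 18.5 and 19.6 M fragments. The knock-in allele is itself transcribed, so the Nkx2-5 level (3689 fragments for wild-normoxia, 4131 for wild-hypoxia and 4106 for mutant-normoxia, the order kept for all values below) is no check of the genotype.

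Macrophages reach the embryonic heart from the yolk sac and later from the fetal liver, and clear dying cells while the valves, septa and vessels take shape. They depend on signalling through the CSF1 receptor, take up debris through scavenger and Fc receptors, and are a main source of C1q, the recognition part of the classical complement pathway. Lysozyme cuts the peptidoglycan of bacterial cell walls. Mice carry a tandem pair of lysozyme genes: Lyz2 encodes lysozyme M of macrophages and granulocytes, and Lyz1 encodes lysozyme P, best known from Paneth cells of the small intestine.

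The sequences of the lysozyme genes are shown first because their similarity bears on how well reads can be assigned to each. In NCBIM37, Lyz2 (ENSMUSG00000069516) lies at chr10:116714390-116719377 and Lyz1 (ENSMUSG00000069515) at chr10:116724852-116729924, both on the minus strand, with 4 exons in the longest coding transcript of each and 5474 bases between the genes. The coding sequences are 447 bases each, of which 425 (95.1%) are identical and 22 differ. The reads were 40 bases long. Of the 408 stretches of 40 bases in the Lyz1 coding sequence, 117 also occur in that of Lyz2, and over the annotated coding transcripts with their untranslated parts 297 of 1225 stretches of Lyz1 (24.2%) and 297 of 1274 of Lyz2 (23.3%) are shared. A read from such a stretch cannot be told apart, so the split between both genes is uncertain, while their sum does not rest on it. The longest identical run, in which a read of 40 bases carries nothing that separates the genes, spans 118 bases at coding positions 276 to 393, counted from the first base of the start codon:
Lyz1 and Lyz2 shared run: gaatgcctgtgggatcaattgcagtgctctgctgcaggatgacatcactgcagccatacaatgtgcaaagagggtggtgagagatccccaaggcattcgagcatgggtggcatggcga
The stretch of 40 bases that separates them best lies at coding positions 93 to 132. Capitals mark the 7 bases that differ:
Lyz1 positions 93 to 132: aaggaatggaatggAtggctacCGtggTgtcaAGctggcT
Lyz2 positions 93 to 132: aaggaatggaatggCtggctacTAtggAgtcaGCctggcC

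The upstream sequences of the pair are shown because both genes were low together in the mutant hearts. Each is the 150 bases from 200 to 51 bases before the gene start in RefSeq (GRCm38.p6 table). Their coordinates come from the single exact match to chromosome 10 of NCBIM37, chr10:116729975-116730124 for Lyz1 and chr10:116719379-116719528 for Lyz2, both on the minus strand, and end 51 and 2 bases before the gene start annotated there. They are printed in the direction of transcription, with capitals at the bases that differ or are unpaired in the alignment of both windows:
Lyz1 upstream: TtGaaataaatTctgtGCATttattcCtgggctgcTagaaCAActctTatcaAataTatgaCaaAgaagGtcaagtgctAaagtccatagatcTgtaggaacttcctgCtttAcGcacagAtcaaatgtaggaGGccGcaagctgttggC
Lyz2 upstream: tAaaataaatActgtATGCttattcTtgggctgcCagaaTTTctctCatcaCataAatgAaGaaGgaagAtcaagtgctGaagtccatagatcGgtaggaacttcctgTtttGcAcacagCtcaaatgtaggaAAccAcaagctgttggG
Of 149 aligned bases 122 (81.9%) were identical, fewer than in the coding sequence. The ETS core GGAA, sought on both strands, occurred 3 times in the Lyz1 window and 4 times in the Lyz2 window. It occurs in 81.2% of the 27025 windows of this length in the table and in all 8 windows of the 10 genes that had one (C1qa and Csf1r had none in the table). The longer letters GAGGAA, a purine-rich form recognised by the macrophage factor PU.1, contain the ETS core and were found in neither lysozyme window. They occur in 14.2% of all windows and, among the 10 genes, in those of C1qc and Mrc1. A match of letters is a description of the sequence and not a binding site.

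Both lysozyme genes were far lower in the mutant hearts. The other 8 genes stood there between 80.7% (Fcgr3) and 111% (Mrc1) of the wild-normoxia value, Cx3cr1 with a wide error. Lyz2 was estimated at 504 ± 37.9 fragments (± model SD) in wild-normoxia, at 405 ± 39.0 under hypoxia and at 148 ± 18.3 in the mutant. The mutant value was 29.4% of the wild-normoxia value, and the wild-hypoxia value was 80.4% of it. Lyz1, at a lower level, gave 73.2 ± 9.97, 43.0 ± 8.21 and 16.6 ± 3.83 fragments, and the mutant hearts held 22.7% and the hypoxic hearts 58.8% of the wild-normoxia value. In both genes the order was wild-normoxia, then wild-hypoxia, then mutant-normoxia, and the mutant value lay outside the model SD of either other group. Since some reads cannot be told apart, the Lyz1 values may hold Lyz2 reads and are no independent second measure. Under hypoxia Cd68, at 80.8%, and Fcgr3, at 74.7% of wild-normoxia, stood near or under the 80.4% of Lyz2. In bulk RNA of whole hearts, fewer cells of a type and less RNA of a gene per cell cannot be told apart.

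**Figure D1:**
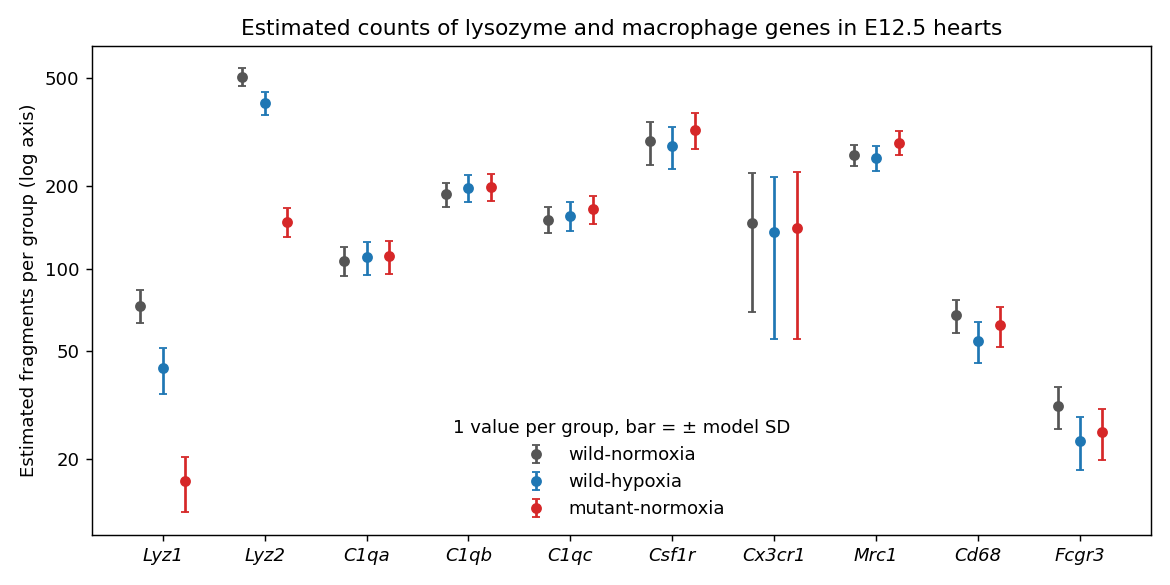
Estimated fragments per group (log axis) for the 10 genes; each point is the 1 value of a group and each bar is ± the model SD, which is not a spread between samples. The mutant-normoxia points of Lyz1 (16.6) and Lyz2 (148) lie well under those of wild-normoxia (73.2 and 504), and the 3 points of each other gene lie within or close to one another's bars.

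Ratios were taken on the log2 scale after adding a pseudocount of 1 fragment, and where 2 ratios are given below for a gene, the first is hypoxia and the second the mutant, each against wild-normoxia. For mutant-normoxia against wild-normoxia the log2 ratio of Lyz2 was -1.76 (SE 0.21), 3.38-fold lower, and that of Lyz1 was -2.08 (SE 0.37), 4.22-fold lower. These lay -8.49 and -5.62 model SEs from 0, or -4.69 and -3.11 if the deposited variance is not divided by the number of samples. Both ratios were below -1, a 2-fold difference, and no other gene of the 10 was over 2-fold from wild-normoxia. Over all 17204 genes 2.08% were over 2-fold in this comparison, 0.494% lower and 1.59% higher. Of the genes compared, 10 had a lower ratio than Lyz1 and 17 a lower ratio than Lyz2. Among the 11977 genes whose mean reached 100 fragments, Lyz2 had the lowest ratio of all, and 15 were more than 2-fold lower.

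For wild-hypoxia against wild-normoxia the lysozyme ratios were smaller. Lyz1 stood at -0.75 (SE 0.33), -2.27 model SEs from 0, and Lyz2 at -0.31 (SE 0.18), -1.79 model SEs from 0. None of the 10 genes was over 2-fold in this comparison, where 2.99% of all genes were, 1.91% lower and 1.08% higher. Lyz2 ranked 612th from the lowest of the same 11977 genes. Both comparisons share the wild-normoxia samples, so a high or low wild-normoxia value would move both.

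The mutant and hypoxic hearts can be set against each other without the wild-normoxia group. In mutant-normoxia against wild-hypoxia the log2 ratio of Lyz2 was -1.44 (SE 0.22), 2.72-fold lower, and that of Lyz1 was -1.32 (SE 0.41), 2.50-fold lower. The mutant hearts thus held 36.6% of the Lyz2 and 38.6% of the Lyz1 level of the hypoxic hearts. Both lysozymes were over 2-fold lower here too, against 0.238% of all genes (1.97% were over 2-fold in either direction, 1.73% higher), although with a pseudocount of 10 only Lyz2 was. The ratios of the 8 other genes lay between 0.01 (C1qb) and 0.20 (Csf1r), each within 1 model SE of 0.

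**Figure D2:**
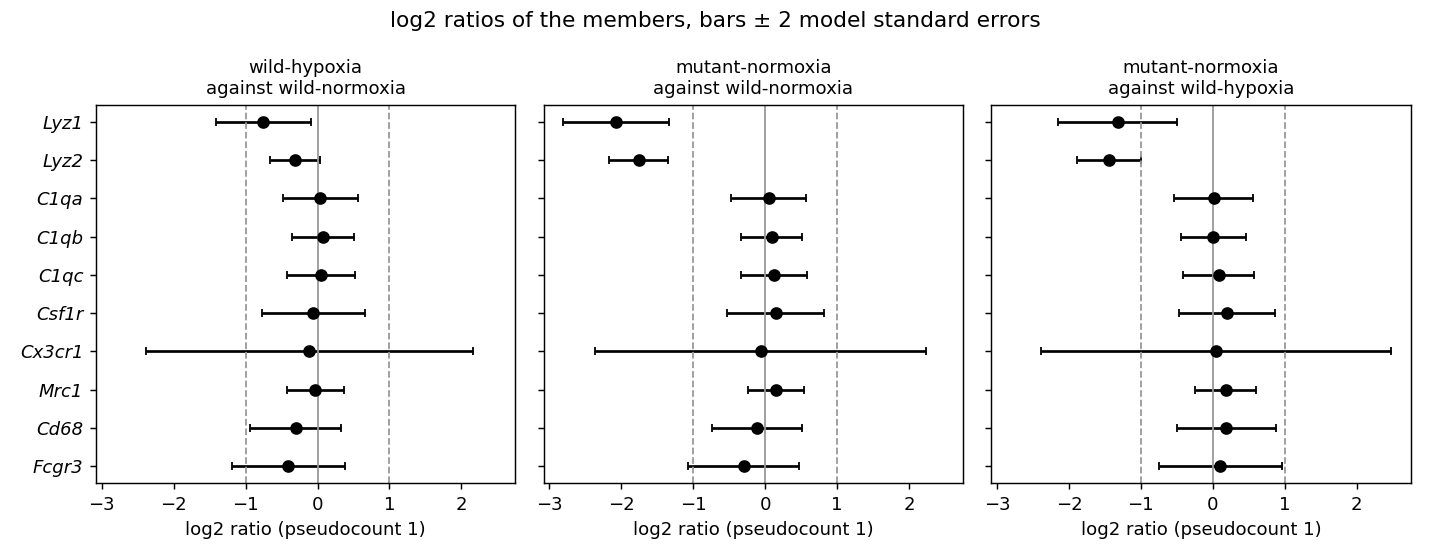
Log2 ratios (pseudocount 1) of the 10 genes in the 3 comparisons of groups; points are ratios, bars ± 2 model SEs, dashed lines mark 2-fold. Lyz1 and Lyz2 lie left of the lower dashed line in both comparisons that hold the mutant (-2.08 and -1.76, -1.32 and -1.44), and the other 8 genes lie near 0, Cx3cr1 with bars beyond ± 2.

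Within the pair, Lyz1 was the minor gene in every group. It made up 12.7% of the fragments of both genes in wild-normoxia, 9.60% of them under hypoxia and 10.1% in the mutant. Their sum, which is free of the split of shared reads between the pair, was 578, 448 and 165 fragments. Lysozyme fragments were thus 31.7%, 27.0% and 11.1% of those of the 10 genes together. Of the other lysozyme-type genes, such as Lyzl1, Lyzl4 and Lyg2, all 8 were under 10 fragments in every group and their sum did not pass 2.42 fragments.

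The C1q genes encode the A, B and C chains, which assemble together into the C1q molecule. They lie side by side on chromosome 4 of NCBIM37, all on the minus strand: C1qb at chr4:136436044-136442102, C1qc at chr4:136445719-136448980 and C1qa at chr4:136451832-136454718. C1qa was estimated at 107 ± 12.9, 110 ± 15.0 and 111 ± 15.1 fragments in wild-normoxia, wild-hypoxia and mutant-normoxia. C1qb stood at 187 ± 18.7, 198 ± 22.1 and 199 ± 22.2 fragments. C1qc stood at 151 ± 16.3, 156 ± 19.2 and 165 ± 19.7 fragments. All 3 chains were a little higher in both other groups than in wild-normoxia, by less than the model SD of the group values. The log2 ratios were 0.04 (SE 0.26), 0.08 (SE 0.22) and 0.05 (SE 0.23) for C1qa, C1qb and C1qc under hypoxia, and 0.05 (SE 0.26), 0.09 (SE 0.21) and 0.13 (SE 0.23) in the mutant. The chains also kept their proportions, with 57.0, 55.4 and 55.6 C1qa fragments and 80.7, 78.9 and 82.9 C1qc fragments per 100 fragments of C1qb in the 3 groups.

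Among the receptors, Csf1r encodes the receptor for CSF1 and IL-34, on which most tissue macrophages depend for survival. It lies at chr18:61265226-61291803 on the plus strand, with 21 exons, and was estimated at 292 ± 52.1, 281 ± 48.4 and 323 ± 49.8 fragments in wild-normoxia, wild-hypoxia and mutant-normoxia. The log2 ratios of Csf1r were -0.06 (SE 0.36) under hypoxia and 0.14 (SE 0.34) in the mutant. Part of its transcript (832 of 5225 stretches of 40 bases, 15.9%) is shared with annotated transcripts of Hmgxb3, so some of its reads cannot be assigned. Mrc1 encodes the mannose receptor CD206 of tissue macrophages and some endothelium, and lies at chr2:14151041-14253684 on the plus strand with 30 exons. It gave 260 ± 23.5, 255 ± 27.0 and 289 ± 29.1 fragments, with log2 ratios of -0.03 (SE 0.20) and 0.15 (SE 0.19).

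Cx3cr1 encodes the fractalkine receptor of monocytes, microglia and many tissue macrophages, and lies at chr9:119957811-119977400 on the minus strand. Its values were 147 ± 77.4, 136 ± 80.7 and 141 ± 85.4 fragments in wild-normoxia, wild-hypoxia and mutant-normoxia, and its log2 ratios were -0.11 (SE 1.14) and -0.06 (SE 1.15). The group values of Cx3cr1 were close, but its model error was by far the widest of the 10 genes. Before division by the number of samples the model SD was 105% of the value in wild-normoxia, against a median of 14.7% over the 11742 genes with more than 100 fragments in every group. A difference of 2-fold in Cx3cr1 would not have been visible against that error.

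Fcgr3 encodes an activating low-affinity receptor for IgG and lies at chr1:172981300-172995066 on the minus strand. It was the lowest of the 8 genes, with 31.2 ± 5.48, 23.3 ± 5.15 and 25.2 ± 5.36 fragments, and its log2 ratios were -0.41 (SE 0.39) and -0.30 (SE 0.38). Of its stretches of 40 bases 196 of 1633 are shared with Fcgr2b, the inhibitory receptor. Cd68, a heavily glycosylated membrane protein of lysosomes and endosomes, lies at chr11:69477715-69479655 on the minus strand. It gave 67.3 ± 9.47, 54.3 ± 9.39 and 62.1 ± 10.4 fragments, with log2 ratios of -0.30 (SE 0.32) and -0.11 (SE 0.31). Cd68 and Fcgr3 were both lower in hypoxic and mutant hearts than in wild-normoxia, Cd68 by less than 1 model SE and Fcgr3 by 1.04 and 0.78 model SEs.

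Over the 8 genes other than the lysozymes, the median log2 ratio was -0.04 under hypoxia and 0.07 in the mutant, beside medians of -0.02 and -0.01 over all genes compared. Their ratios ranged from -0.41 to 0.08 under hypoxia and from -0.30 to 0.15 in the mutant. The fragments of these 8 genes summed to 1243, 1213 and 1315 in wild-normoxia, wild-hypoxia and mutant-normoxia. Set against that sum, Lyz2 stood at 40.6, 33.4 and 11.3 fragments per 100, and Lyz1 at 5.88, 3.55 and 1.26 per 100. Per 100 Csf1r fragments, Lyz2 gave 173, 144 and 45.9, whereas the 3 C1q genes together gave 152, 165 and 147. The lower lysozyme level of the mutant hearts was therefore not matched by a lower level of the other macrophage genes in the same libraries.

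Levels of different genes were compared per kilobase of the longest annotated coding transcript. In wild-normoxia the order was Lyz2 (384 ± 28.9 fragments per kb), C1qb (172 ± 17.2), C1qc (126 ± 13.5), C1qa (103 ± 12.4), Csf1r (62.2 ± 11.1), Lyz1 (57.9 ± 7.89), Cd68 (54.7 ± 7.70), Mrc1 (48.7 ± 4.38), Cx3cr1 (39.4 ± 20.8) and Fcgr3 (23.2 ± 4.07). Lyz2 was the highest by far, and the levels per kb of Csf1r, Lyz1, Cd68 and Mrc1 followed each other within their model SDs. In wild-hypoxia Lyz2 still led with 309 ± 29.7 fragments per kb, ahead of C1qb with 182 ± 20.3, and Lyz1 stood after Cx3cr1 with 34.0 ± 6.49 against 36.4 ± 21.6, a gap inside the model SDs. In mutant-normoxia Lyz2 came with 113 ± 13.9 fragments per kb after C1qb (183 ± 20.4) and C1qc (137 ± 16.4) and next to C1qa (106 ± 14.5), from which it did not differ beyond the model SD. Lyz1 was last there with 13.1 ± 3.03 fragments per kb, under Fcgr3 with 18.7 ± 3.98.

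A wider list of 36 other genes known from macrophages was examined to see whether the pattern of the 8 genes was shared. Of these 31 passed the minimum of 10 fragments, and none was over 2-fold in either direction in hypoxic or mutant hearts. Over all genes compared the shares over 2-fold were 2.99% and 2.08%. At such shares, finding none in this list or in the shorter lists below says little. Their median log2 ratio was 0.01 under hypoxia and -0.05 in the mutant, with ranges from -0.52 to 0.56 and from -0.44 to 0.62. The sum over the list was 6845, 7029.8 and 6763 fragments in the 3 groups. Lgmn, picked after its values were seen, gave 3260, 3250 and 3021 of these, more than any other gene of the list. Of the genes of this list farthest from 0 in model SEs, Csf2rb, the shared beta chain of the receptors for GM-CSF, IL-3 and IL-5, had 59.6, 88.5 and 91.9 fragments and log2 ratios of 0.56 (SE 0.30) and 0.62 (SE 0.29). Maf, a transcription factor of resident macrophages, had 376.9, 422 and 489 fragments (0.16, SE 0.18, and 0.38, SE 0.17). Mertk, a receptor for dying cells, had 224, 191 and 176 fragments (-0.23, SE 0.21, and -0.35, SE 0.21). Adgre1, which encodes the macrophage antigen F4/80 and was picked after its values were seen, was estimated at 48.3, 46.2 and 48.1 fragments. The defining macrophage genes were thus present in all groups, at a low level in the RNA of the whole heart.

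Genes of other blood cells, of which granulocytes and monocytes can carry lysozyme, were mostly low. Of 16 neutrophil and granule genes 11 stayed under 10 fragments in every group, and Ly6g was listed at 0 in all of them. The list summed to 169, 128 and 150 fragments. Mpo, the myeloperoxidase of young granulocytes and their precursors, made up much of it with 85.7, 54.1 and 62.8 fragments and log2 ratios of -0.65 (SE 0.33) and -0.44 (SE 0.32). Of the 5 genes that passed the minimum, S100a9 was over 2-fold, at 8.10, 10.2 and 17.5 fragments with a mutant log2 ratio of 1.02. Of the 11 under the minimum, Ctsg, a granule protease, gave 9.56, 7.65 and 3.72 fragments, a mutant log2 ratio of -1.16 (SE 0.53). Both were picked after their values were seen. The monocyte genes Ly6c2 and Chil3 were listed at 0 in both wild-type groups and at 0.13 fragments in the mutant, and Ccr2 stood at 5.12, 2.87 and 2.56 fragments. The sum of the neutrophil genes was thus lower in the hypoxic and the mutant hearts than in wild-normoxia. The median log2 ratio of the 5 neutrophil genes that passed was -0.30 under hypoxia but 0.13 in the mutant. In the mutant 3 of these 5 were above 0 and 2 below. The part of neutrophil RNA in the lysozyme values was not tested. Of 10 monocyte genes 4 passed the minimum, among them F13a1, Plac8 and Fn1, with medians of 0.09 and 0.08 and none over 2-fold. Fn1 alone gave 39036, 42703 and 45344 fragments of a list sum of 39288, 42955 and 45637. Ccr2, Ly6c2 and Chil3 were under the minimum and do not enter these medians, which therefore say little about monocytes. Of 8 mast cell genes 2 passed, Kit with 574, 589 and 579 fragments and Hdc with 64.1, 65.2 and 54.4, and all 10 lymphocyte genes were under 10 fragments in every group.

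**Figure D3:**
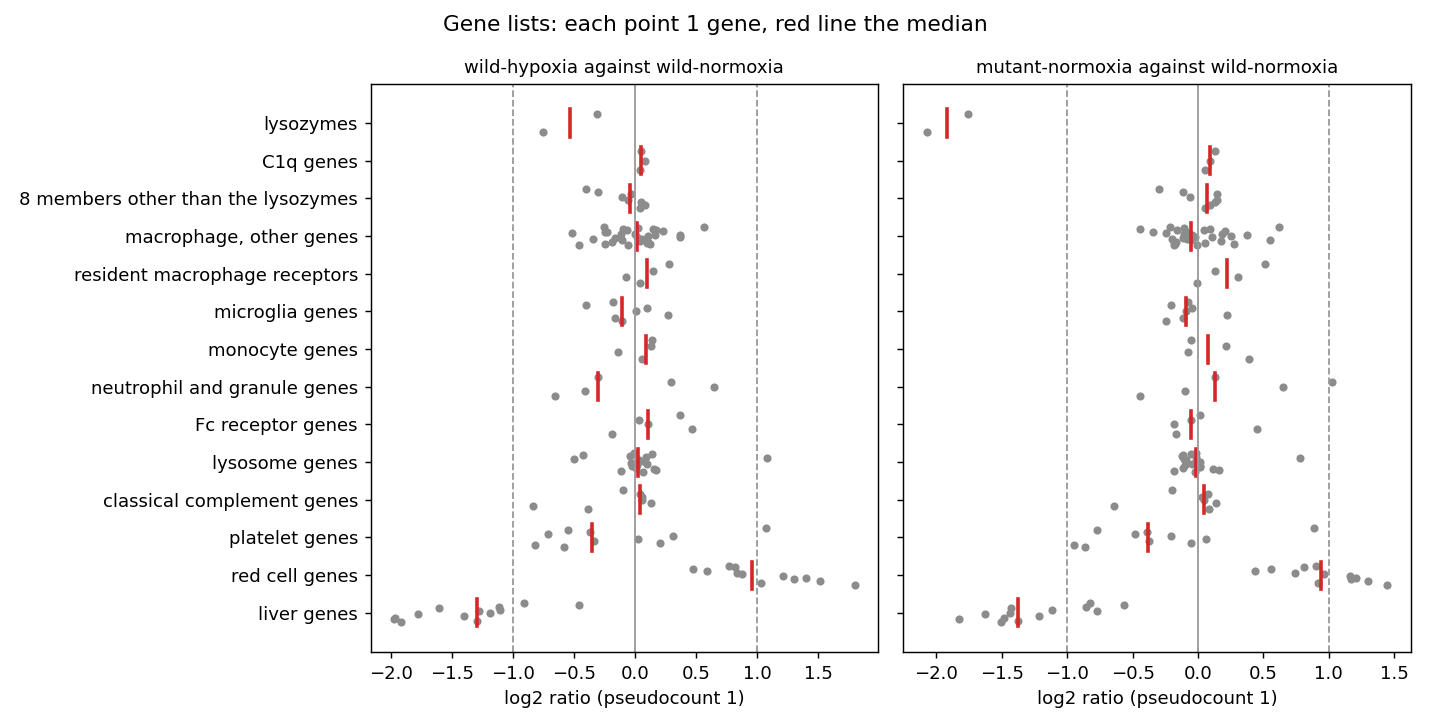
Log2 ratios (pseudocount 1) under hypoxia (left) and in the mutant (right) for the genes of each list that passed the minimum of 10 fragments; each point is a gene, each red line the median of its list, dashed lines mark 2-fold. The lysozyme median of -1.92 in the mutant stands beside 0.09 for the C1q genes, -0.05 for the 31 other macrophage genes and -1.38 for the liver genes.

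Genes of resident macrophage receptors were mostly too low to compare. Of 13 such genes 9 stayed under 10 fragments in every group, among them Timd4, Cd163 and Vsig4, and the median of the 4 that passed was 0.09 under hypoxia and 0.22 in the mutant. Lyve1, found on a subset of resident macrophages and on lymphatic and endocardial cells, was estimated at 258, 265 and 256 fragments. Gas6, the bridging ligand of Mertk and its relatives, which many cells of the heart make, was at 1509, 1825 and 2154 fragments with log2 ratios of 0.27 (SE 0.14) and 0.51 (SE 0.14). None of the 4 was over 2-fold in either direction. The 7 microglia genes that passed had medians of -0.11 and -0.10, again with none over 2-fold.

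The ligands and lineage factors of the macrophage were close to wild-normoxia in their group values. Csf1, the ligand of Csf1r, gave 614, 599 and 598 fragments in wild-normoxia, wild-hypoxia and mutant-normoxia (log2 ratios -0.03 and -0.04), and its other ligand Il34 was under 10 fragments in all groups. Cx3cl1, the ligand of Cx3cr1, gave 234, 218 and 222 fragments (-0.10 and -0.08). Of the transcription factors, Spi1, which encodes PU.1 and was picked after its values were seen, gave 36.1, 46.9 and 35.5 fragments. Irf8 gave 79.2, 85.2 and 94.5 fragments, with log2 ratios of 0.10 (SE 8.64) and 0.25 (SE 8.40). Against so wide an error a 2-fold difference in Irf8 would not have been visible. Cebpb gave 111, 142 and 138 fragments (0.35, SE 0.47, and 0.31, SE 0.55). None of the 7 genes of this list that passed the minimum was over 2-fold (medians 0.08 and 0.20).

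The classical complement genes downstream and around C1q were described in the same way. Of 10 genes 7 passed the minimum, with medians of 0.04 under hypoxia and 0.05 in the mutant, and none was over 2-fold. C3, the central complement component, was lower in both groups, at 89.1, 49.4 and 56.7 fragments with log2 ratios of -0.84 (SE 0.32) and -0.64 (SE 0.32). Serping1, the inhibitor of C1, was at 556, 607 and 612 fragments (0.13, SE 0.16, and 0.14, SE 0.16). The genes of the C1r and C1s proteases, C1ra and C1s1, stayed under 10 fragments in every group, while the C1q chains were detected at over 100.

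Of the other Fc receptor genes, 5 of 8 passed the minimum and none was over 2-fold. Fcer1g, the signalling chain with which Fcgr3 assembles, was at 67.8, 73.1 and 59.7 fragments (0.11, SE 0.30, and -0.18, SE 0.31). Fcrls gave 80.2, 103.9 and 80.9 fragments, a log2 ratio of 0.37 (SE 0.28) under hypoxia and 0.01 (SE 0.29) in the mutant. Of 20 lysosome genes, the compartment of Cd68 and of lysozyme, all passed, and their medians were 0.02 and -0.02. One of them was over 2-fold, Acp5 under hypoxia, at 539, 1143 and 924 fragments with ratios of 1.08 (SE 0.16) and 0.78 (SE 0.17). Acp5 encodes an acid phosphatase of osteoclasts and macrophages that is found in other cells too. Ctsb, a lysosomal protease of nearly all cells, was at 8158, 9206 and 9135 fragments.

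Genes of other tissues differed between the groups in the same libraries. All 13 liver genes were lower in both groups, with medians of -1.29 under hypoxia and -1.38 in the mutant, and 11 and 9 of them were over 2-fold lower. Their sum was 5755 fragments in wild-normoxia but 2073 under hypoxia and 2299.9 in the mutant, and Alb, the albumin gene, gave 1151, 469 and 442. The 12 red cell genes were higher in both groups, with medians of 0.95 and 0.94, and 6 and 5 of them were over 2-fold higher. Their sum was 16419.9, 41725 and 37001 fragments, with Alas2, which starts haem synthesis in the red cell lineage, at 2743, 9537 and 7489. The 10 platelet genes had medians of -0.36 and -0.38, with none over 2-fold lower in either group and 1 higher under hypoxia. Pf4, the platelet factor 4 gene, was at 214, 143 and 118 fragments (-0.58, SE 0.24, and -0.86, SE 0.25), and Tubb1 was higher at 194, 408 and 359 (1.07, SE 0.20, and 0.88, SE 0.20).

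The liver and red cell genes stood at similar levels in hypoxic and mutant hearts, and the lysozymes did not. The 13 liver genes gave 2073 and 2299.9 fragments in wild-hypoxia and mutant-normoxia, while the lysozyme pair gave 448 and 165. The part of liver, red cell or platelet RNA in the lysozyme values was not tested. Genes of the heart itself differed less: the median ratio was 0.07 and 0.14 over 9 heart muscle genes and 0.10 and -0.04 over 8 endothelial genes, with none over 2-fold.

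**Figure D4:**
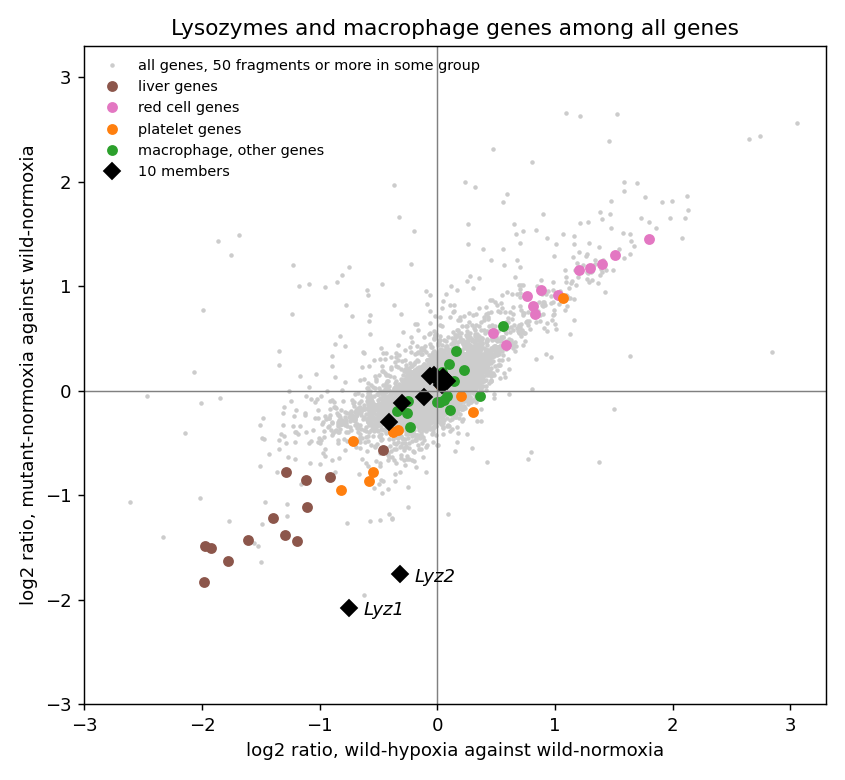
Each gene that reached 50 fragments in 1 group or more, placed by its log2 ratio under hypoxia (horizontal) and in the mutant (vertical), pseudocount 1, with 1 gene beyond the axes; both axes share the wild-normoxia group, so their agreement is not a result. Lyz2 (-0.31, -1.76) and Lyz1 (-0.75, -2.08) lie low on the vertical axis and away from the liver genes, which are low on both axes, and the other 8 genes lie near 0.

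Among the 13626 genes of the plot that sets both ratios against each other, 4 had a mutant ratio as low as that of Lyz2 or lower: Lyz1, Lyz2, Fgb and Ankrd63. Fgb, the fibrinogen beta chain gene of the liver, was low under hypoxia as well, at 110.4, 27.3 and 30.4 fragments in wild-normoxia, wild-hypoxia and mutant-normoxia. Ankrd63, an ankyrin repeat gene picked after its values were seen, gave 134, 86.4 and 33.8 fragments with log2 ratios of -0.62 (SE 0.26) and -1.95 (SE 0.32).

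The genes nearest to Lyz2 in pattern were sought among genes whose mean reached 100 fragments, by the Euclidean distance between pairs of log2 ratios against wild-normoxia over the 3 groups. They were Igfbpl1 (distance 0.54), Col2a1 (0.55), Slitrk5 (0.57), Pcsk6 (0.59) and Rec8 (0.71). Col2a1, a collagen of cartilage and embryonic valves, gave 2732, 1949 and 1159.6 fragments, with ratios of -0.49 (SE 0.14) and -1.24 (SE 0.14). Igfbpl1 gave 950.4, 726 and 407 fragments (-0.39, SE 0.15, and -1.22, SE 0.16). None of the 5 is a gene of the macrophage list, which adds nothing to that list's lowest mutant ratio of -0.44 given above. Lyz1, with a mean of under 100 fragments, was not among the genes searched.

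The surroundings of the lysozyme pair on chromosome 10 were described to see how local the pattern was. Within 1000 kb on each side of the Lyz2 start, 19 other genes passed the minimum. Their log2 ratios in the mutant lay between -0.63 and 0.25, with a median of -0.07. Of them 0 were over 2-fold, beside 2.08% of all genes compared, a share at which so small a set would hold few. A list of 8 neighbours, which are not the 8 nearest and leave out Lrrc10, had medians of -0.11 and -0.04, also with none over 2-fold. The nearest on either side were Yeats4, at -57.8 kb, with 1400.5, 1446 and 1422 fragments, and Cpsf6, at 94.7 kb, with 3489, 2601 and 3113. Yeats4 encodes a chromatin reader and Cpsf6 a factor of mRNA 3' end processing, and their log2 ratios in the mutant were 0.02 and -0.16. The lowest neighbour in the mutant was Lrrc10, a heart muscle gene at -237 kb, with 1081, 992 and 698 fragments. Its log2 ratios were -0.12 and -0.63, and like the lysozymes it stands in the study's own list of genes for the mutant hearts. Under hypoxia 1 neighbour was over 2-fold lower, 1700058G18Rik, with 12.9, 0.40 and 8.29 fragments and a log2 ratio of -3.31. Both were picked after their values were seen. Around the C1q genes, 27 other genes passed the minimum within the same distance, none of them over 2-fold in the mutant and 1 under hypoxia, Epha8, with 6.65, 14.4 and 7.99 fragments and a log2 ratio of 1.01, also picked after its values were seen.

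**Figure D5:**
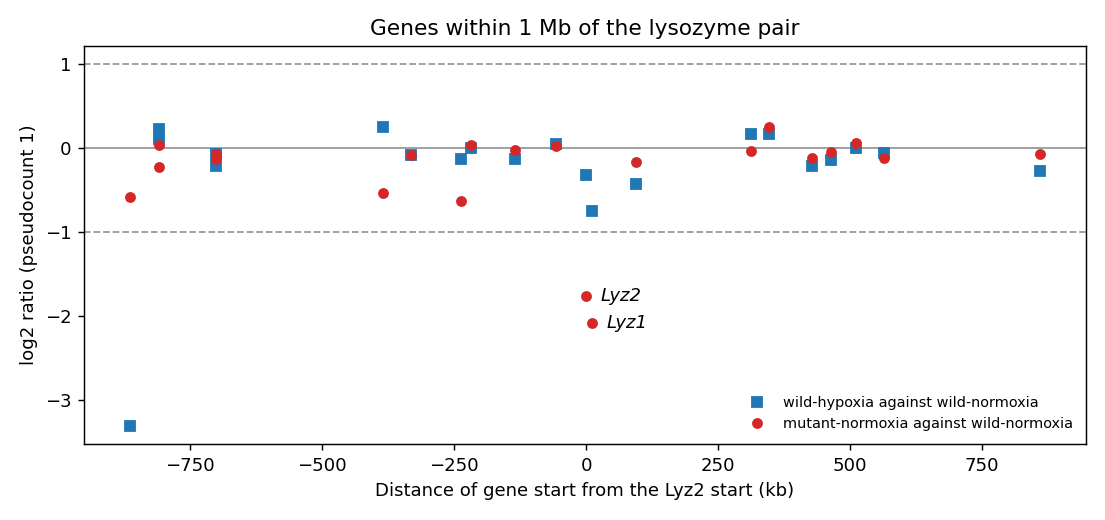
Log2 ratio (pseudocount 1) of the 21 genes compared within 1000 kb of Lyz2, against the distance of each gene start from the Lyz2 start in kb, for hypoxia (squares) and the mutant (circles); dashed lines mark 2-fold. In the mutant only Lyz1 and Lyz2 lie under the lower dashed line, and the 19 other genes lie between -0.63 and 0.25.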

How the data were processed

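Group membership of the 10 samples was taken from the submitters' labels. Poly-A selection and single-end reads of 40 bases are as described by the authors, who per the labels and methods used FastQC, Bowtie2, TopHat and Cufflinks with mm9; tool versions: not given in the sources used here. Deposited values are estimated counts that the authors made with Cufflinks, 1 per gene and group, on a scale shared by the groups. Beside each stand a deposited model variance in squared fragments and a status, which was OK for the 10 genes in all groups. The status HIDATA, for genes with too many reads, was given to 20 to 31 genes per group; genes without an estimate were left out.

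No column holds a single sample. A count test on samples had been planned and could not be run on group values, so log2 ratios with a pseudocount of 1 are given, for genes reaching 10 fragments in 1 group or more, and a difference over 2-fold is counted. Counts are not rounded. The model SE assumes that samples of a group are independent and that the deposited variance is that of 1 sample; it is no spread between samples, and the same error with undivided variance was tried. The arithmetic was checked on counts simulated with a variance equal to their mean. That check does not cover the deposited variances or their division by the number of samples.

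Ensembl identifiers were named from a reference table, with older symbols replaced through RefSeq synonyms (32728 of 49662 genes, and 15644 of the 17204 compared). Coordinates and transcripts come from the GENCODE annotation of NCBIM37, the assembly behind mm9. The deposited table holds no coordinates, and loci printed in the study's supplement follow another assembly, so the annotation behind the counts may differ from the one used here; nothing was converted. Upstream sequences are from RefSeq (GRCm38.p6).

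The 10 genes, the 18 gene lists and the rules were chosen with earlier results of these data known. Named are the 10 genes; up to 4 genes per list that lie farthest from 0 in model SEs and reach 50 fragments in some group; any Fc receptor, classical complement, ligand or neighbour gene reaching 50 fragments; and the 5 genes nearest to Lyz2. Adgre1, Spi1 and others named as picked after their values were seen, and genes named as too low to compare, fall outside the rule. One gene that the rule names is not reported here. Python 3.11.15, numpy 2.4.6, pandas 2.3.3, biopython 1.88 and matplotlib 3.10.9 were used.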

Additional observations from a re-analysis of the deposited data

How the results depend on the processing

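No paired analysis was possible because the table holds 1 value per gene and group and no column of a single replicate. For the same reason leaving out each replicate, edgeR with DESeq2 size factors as its alternative, and a replicate block were not run, and whether 1 sample decides a group value is unknown.

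A pseudocount of 0.5 and scaling to the median ratio or to the total of all genes changed neither the direction of any member's ratio past 2-fold nor a count of members past it. With a pseudocount of 10 the log2 ratio of Lyz1 in mutant-normoxia against wild-normoxia was -1.64 in place of -2.08, and in mutant-normoxia against wild-hypoxia 1 of the 10 genes, Lyz2, in place of 2 was over 2-fold lower. Low counts are pulled towards 0 by a larger pseudocount, which touches Lyz1 with 16.6 fragments in the mutant most. With undivided variance every model SE of the 10 genes was larger, 0.37 for Lyz2 and 0.67 for Lyz1 in mutant-normoxia against wild-normoxia.

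The number of all genes over 2-fold depends on low counts. For wild-hypoxia against wild-normoxia it was 186 higher and 329 lower, and 110 and 112 with a pseudocount of 10, 103 and 84 with a minimum of 50 fragments, and 476 and 1029 with no minimum. For mutant-normoxia against wild-normoxia it was 273 and 85, then 146 and 33, 128 and 31, and 644 and 427 under the same settings. For mutant-normoxia against wild-hypoxia it was 298 and 41, then 103 and 19, 66 and 11, and 1026 and 294.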
